A study of Mus musculus with 14 samples.

Results

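Messenger RNA of 8 genes for the pore-forming alpha1 subunits of voltage-gated calcium channels was described in the superior colliculus of newborn mice: Cacna1a (P/Q type), Cacna1b (N type), Cacna1c and Cacna1d (L type), Cacna1e (R type), and Cacna1g, Cacna1h and Cacna1i (T type). They were chosen by gene symbol, matched by Ensembl ID, from 55359 gene IDs in the files. All 8 were among the 20330 genes that passed the filter on low counts, with 1925 to 11540 reads per gene and library.

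Voltage-gated calcium channels open when a membrane depolarises and let calcium into the cell, and their alpha1 subunit sets the channel type. P/Q-type and N-type channels sit at axon terminals and trigger transmitter release. L-type channels of neurons lie mainly on the soma and dendrites and carry calcium signals to the nucleus, R-type channels serve dendrites and terminals, and T-type channels open at small depolarisations and shape burst firing. In the developing visual system, bursts of activity that spread across the retina before eye opening reach the superior colliculus, a midbrain structure whose superficial layers receive retinal axons and whose deep layers receive other senses and send motor commands.

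Poly-A selected RNA of bulk tissue was sequenced from the superficial and the deep layer of the colliculus of ICR/CD-1 mice at postnatal day 6. An eye injection of 0.3 to 0.5 µL at postnatal day 0 to 1 held either saline or 50 mM carbenoxolone (cbx), a gap junction blocker given to ablate retinal waves. The groups were saline superficial (n = 3), cbx superficial (n = 4), saline deep (n = 3) and cbx deep (n = 4). Each library was a pool of microdissected tissue from 3 brains, so that p-values reflect differences among pools, and every brain had an injected eye, since no uninjected group was used here. Libraries are named by treatment, layer and number.

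Total counts were 32004952 to 48776827 per library. Summed markers of neurons ranged from 5295 to 6710 CPM (read counts scaled to a common library size, with TMM factors), and 4 of 7 markers of superficial collicular neurons were higher in superficial tissue while 3 were lower. Of 7 markers of deep neurons 4 were lower there and 3 higher. All 10 meningeal fibroblast markers were higher in superficial than deep tissue in both treatments, with summed levels of 692 to 1754 CPM in superficial and 51.8 to 95.6 CPM in deep libraries. In bulk tissue, fewer cells of a type and less RNA per cell cannot be told apart.

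The 8 genes moved together from library to library. The cbx superficial library 1 was the lowest of its group for all 8, by 0.37 on average on the log2 scale below the group mean. In the saline libraries, number 3 was the lowest for all 8 genes in both layers. The dependence of log2 CPM on the length and GC content of transcripts, fitted for each library over all genes, lay 0.31 below its group's mean in cbx superficial library 1 at these 8 genes. The spread within groups was 0.14 to 0.27 (SD of log2 CPM, over the 8 genes) with that trend in place and 0.044 to 0.14 with it removed, and its part in the shared movement was not tested. Summed neuronal markers in that library were 5295 CPM, and 5317 to 5499 CPM in the other cbx superficial libraries.

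**Figure D1:**
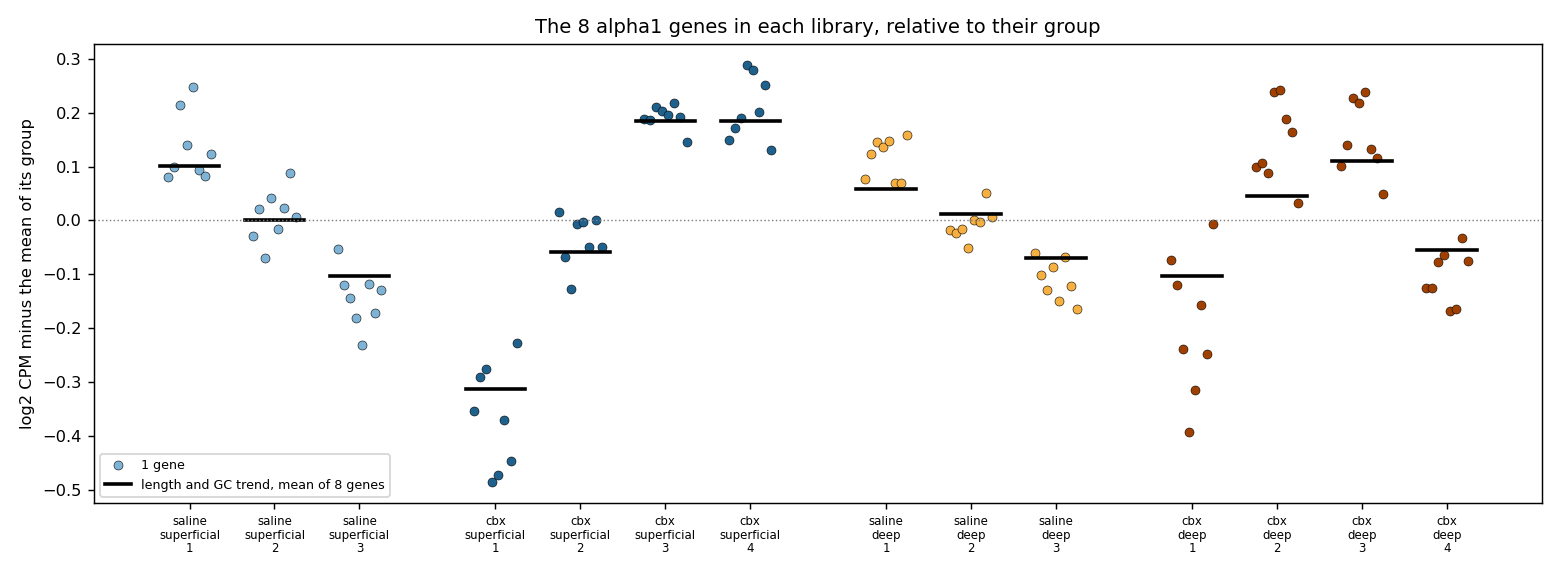
Each point is 1 of the 8 alpha1 genes in 1 library, as log2 CPM minus the mean of its group, and each black line is the mean over the 8 genes of what length and GC content of transcripts predict in that library, on the same scale. All 8 points of cbx superficial library 1 lie below 0, at -0.49 to -0.23, and its line lies at -0.31.

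Levels of different genes were compared as CPM per kilobase of exon. Cacna1g, a T-type gene, was the highest of the 8 in every group, at 26.5 CPM per kilobase in saline superficial, 22.6 in cbx superficial, 24.3 in saline deep and 26.8 in cbx deep tissue, and its libraries did not overlap those of the next gene. Cacna1c was the lowest in every group, at 3.39 to 3.98. Next below Cacna1g came Cacna1b, Cacna1a and Cacna1h, whose order differed between layers.

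In saline superficial tissue Cacna1h had 15.7, Cacna1b 15.4 and Cacna1a 15.3 CPM per kilobase, and each overlapped its neighbour. In saline deep tissue Cacna1b had 20.3 and Cacna1a 18.5, with overlapping libraries, and Cacna1h followed at 14.5 without overlap with Cacna1a. The order in the cbx groups was Cacna1b, Cacna1h and Cacna1a in superficial (14.3, 12.4 and 12.4) and Cacna1b, Cacna1a and Cacna1h in deep tissue (20.5, 18.1 and 14.4). By this length the 3 genes lay close to each other in superficial tissue, while in deep tissue Cacna1h stood below the other two.

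Cacna1d (7.21 to 9.09 CPM per kilobase over the groups), Cacna1i (7.03 to 7.82) and Cacna1e (5.25 to 6.69) filled the lower middle. Cacna1d and Cacna1i overlapped in every group, Cacna1i and Cacna1e in both deep groups, and Cacna1e and Cacna1c in cbx superficial tissue. With the longest transcript as the length in place of all exons, Cacna1g and Cacna1c kept their places. Cacna1a rather than Cacna1b or Cacna1h came next to Cacna1g in all 4 groups (17.8 to 26.6 against 14.6 to 20.9 for Cacna1b). By that length Cacna1a (26.6) overlapped Cacna1g (29.3) in saline deep tissue, and Cacna1i overlapped Cacna1c in both saline groups. In saline superficial tissue Cacna1a (22.0) then lay above Cacna1h (18.7) without overlap, and Cacna1h overlapped Cacna1b (15.7). In both deep groups Cacna1h was again below Cacna1a and Cacna1b without overlap. The order of the P/Q-type and N-type genes, and the closeness of the 3 genes in saline superficial tissue, therefore rested on which exons are counted.

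Summed over all 8 genes, levels were 99.5 CPM per kilobase (SD 8.33, n = 3) in saline superficial, 85.4 (SD 14.8, n = 4) in cbx superficial, 102.5 (SD 7.02, n = 3) in saline deep and 105.7 (SD 11.9, n = 4) in cbx deep tissue. T-type genes made up the largest share of that sum, with 50.2% in both superficial groups, 44.6% in saline deep and 46.3% in cbx deep tissue. Their share was 49.6% to 50.9% in the 7 superficial libraries and 44.1% to 46.6% in the 7 deep libraries, with no overlap. The N-type share went the other way, at 15.4% to 17.7% in superficial and 18.9% to 20.1% in deep libraries. The T-type level itself averaged 49.9 CPM per kilobase in saline superficial and 45.7 in saline deep tissue. After cbx it averaged 42.9 in superficial and 48.9 in deep tissue, so there the higher superficial share went with a lower level. No test was run on shares, since they are sums over genes chosen with earlier results known.

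The P/Q-type share averaged 15.4% in saline superficial, 14.5% in cbx superficial, 18.04% in saline deep and 17.1% in cbx deep tissue. The L-type genes took 13.1%, 12.4%, 11.8% and 10.9%, and the R-type gene 5.86%, 6.11%, 5.82% and 6.29%, in the same order of groups. In cbx superficial tissue the summed level varied from 65.6 to 97.0 CPM per kilobase between libraries, while the T-type share stayed at 50.1% to 50.3%.

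**Figure D2:**
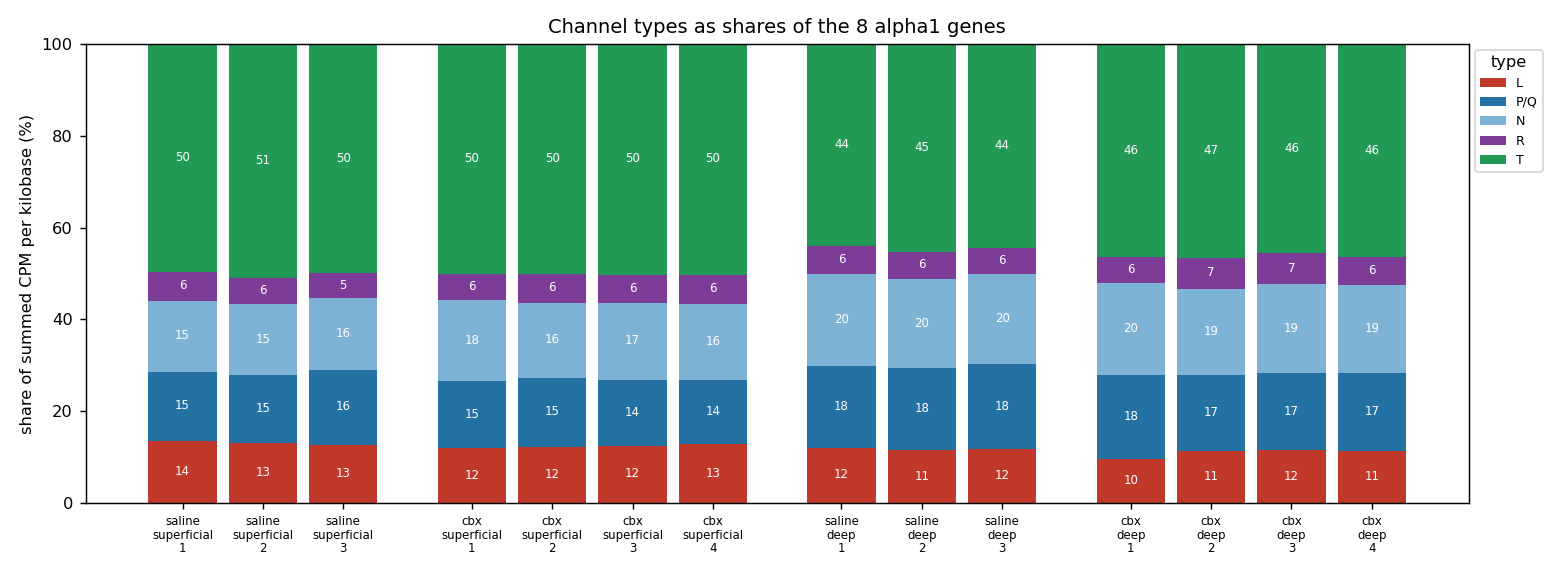
Each bar is 1 library, split by channel type into shares (percent) of the CPM per kilobase summed over the 8 alpha1 genes, and numbers in the bars are shares rounded to whole percents. The T-type share is 49.6% to 50.9% in superficial and 44.1% to 46.6% in deep libraries.

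The comparison of layers asked how the channel genes differ between the retina-receiving superficial tissue and the deep tissue. The genes of the presynaptic channels were lower in superficial tissue: Cacna1b in both treatments, and Cacna1a after cbx. In saline tissue 1 of 8 genes was lower (adjusted p under 0.05) and 0 were higher, where 8.73% of all genes tested were lower, 9.67% higher and 18.4% changed in either direction. After cbx 2 of 8 were lower and 0 higher, where 14.1% of all genes were lower, 18.1% higher and 32.2% changed in either direction. Shares of 1 and 2 in 8 are not far from these backgrounds. The libraries of both layers did not overlap for Cacna1a and Cacna1b in either treatment, which is 2 of 8 genes beside 36.7% of all genes in saline and 29.6% in cbx tissue.

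Cacna1b encodes the pore of N-type channels, which support transmitter release early in synapse formation. In saline tissue it had 163.6, 155.0 and 140.7 CPM in superficial libraries 1 to 3 and 219.1, 197.9 and 187.4 CPM in deep libraries 1 to 3. Every deep library was above every superficial one. The log2 difference, superficial minus deep, was -0.40 (SE 0.11), or 0.760-fold (95% interval 0.640 to 0.903), with an edgeR adjusted p of 0.0168. With the pool number as a block, which compares layers within pools, the call held.

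After cbx, Cacna1b had 115.3, 134.6, 160.6 and 158.9 CPM in superficial libraries 1 to 4 and 186.5, 218.2, 223.5 and 185.9 CPM in deep libraries 1 to 4. Here too the groups did not overlap, and superficial library 1 was the farthest down. The log2 difference was -0.52 (SE 0.097), or 0.700-fold (0.603 to 0.813), with an edgeR adjusted p of 0.000409. Without cbx superficial library 1 it was -0.43 (SE 0.082), with an edgeR adjusted p of 0.000416. Within pools the superficial to deep ratio of Cacna1b was below 1 in 7 of 7 pools, from 0.617 to 0.855.

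Cacna1a encodes the pore of P/Q-type channels, which drive release at most mature central synapses. In saline tissue it had 184.3, 170.9 and 168.0 CPM in superficial and 222.4, 208.3 and 202.3 CPM in deep libraries. The deep libraries were all higher, but the log2 difference of -0.27 (SE 0.11) did not pass (edgeR adjusted p = 0.0837). With the pool block the difference was -0.275 (SE 0.078) and passed, with an edgeR adjusted p of 0.0150.

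After cbx, Cacna1a had 109.3, 141.1, 159.2 and 155.0 CPM in superficial libraries 1 to 4 and 195.3, 220.2, 220.5 and 188.5 CPM in deep libraries 1 to 4. All superficial libraries were below all deep ones. The log2 difference was -0.55 (SE 0.092), or 0.685-fold (0.594 to 0.790), with an edgeR adjusted p of 0.000133. Without cbx superficial library 1 it was -0.44 (SE 0.068), with an edgeR adjusted p of 2.83e-05. The ratio within pools was 0.820 to 0.831 in the 3 saline pools and 0.559, 0.641, 0.722 and 0.822 in cbx pools 1 to 4, so that cbx pool 4 was like the saline pools and the others were lower.

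For Cacna1b the call in saline tissue depended on single pools. Without saline deep library 1 the log2 difference was -0.33 (edgeR adjusted p = 0.0848), without saline superficial library 3 it was -0.34 (edgeR adjusted p = 0.0770), and without saline pool 1 (Xist at 0.572 to 1.94 CPM, Ddx3y at 69.5 to 70.8) and cbx pool 4 (Ddx3y at 0, Xist at 759 to 1127), 2 pools that each fit a single sex, it was -0.38 (edgeR adjusted p = 0.0851). In superficial tissue neuronal markers were also lower: 5 of 12 fell and 1 rose in saline tissue, and 7 fell and 1 rose after cbx, with summed levels of 5295 to 5866 CPM in superficial and 6143 to 6710 CPM in deep libraries and none of the 12 at 0. Their part in the layer differences was not tested.

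The promoter of Cacna1b, the gene lower in superficial tissue in both treatments, is shown beside that of Cacna1i, a gene whose only layer call among the alternatives run was a higher level in cbx superficial tissue with length and GC trends removed (0.15, edgeR adjusted p = 0.0442). RefSeq windows of GRCm38.p6 matched 5 of the 8 genes, and both genes shown have 1 listed start. Each sequence is the 250 bases before the listed start, 5′ to 3′ on the gene's strand, with GC boxes (GGGCGG, searched on both strands) in capitals. Cacna1b lies at chr2:24763153-24763402, minus strand, and Cacna1i at chr15:80286988-80287237, plus strand.
Cacna1b: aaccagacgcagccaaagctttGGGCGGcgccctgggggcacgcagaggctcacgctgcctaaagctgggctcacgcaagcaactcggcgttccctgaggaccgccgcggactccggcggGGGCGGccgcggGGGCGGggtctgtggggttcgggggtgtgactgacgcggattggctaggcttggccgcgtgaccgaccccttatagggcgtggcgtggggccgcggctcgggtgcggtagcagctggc
Cacna1i: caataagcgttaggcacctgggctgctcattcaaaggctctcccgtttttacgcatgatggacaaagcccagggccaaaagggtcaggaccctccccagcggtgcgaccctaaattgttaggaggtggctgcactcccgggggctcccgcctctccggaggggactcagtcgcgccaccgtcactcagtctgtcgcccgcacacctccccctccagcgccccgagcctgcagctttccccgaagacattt
The Cacna1b window holds 3 GC boxes and 72.0% G and C, and the Cacna1i window 0 GC boxes and 62.4%. Windows not shown hold 0 or 6 GC boxes for Cacna1c and 0 or 5 for Cacna1d, which have several listed starts, and 0 for Cacna1e. No layer difference of these genes was called in the fit without blocks. Whether GC boxes bear on the levels of these genes was not tested. Of all 32851 listed windows of this length 32.7% hold at least 1 GC box, so its presence is common. A match is a description of letters and not a site of binding.

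Among the other 6 genes no layer difference was called in the fit without blocks. Cacna1g had 286.0, 272.5 and 247.1 CPM in saline superficial and 257.9, 245.4 and 234.4 CPM in saline deep libraries, which overlap. After cbx it had 175.1, 218.7, 263.4 and 260.2 CPM in superficial and 241.8, 307.2, 295.7 and 240.7 CPM in deep libraries. The log2 differences were 0.13 (SE 0.13, edgeR adjusted p = 0.589) in saline and -0.24 (SE 0.11, edgeR adjusted p = 0.119) in cbx tissue. Cacna1g was thus slightly above 1 in every saline pool, at ratios of 1.05 to 1.11, and below 1 in cbx pools 1 to 3.

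Cacna1h, the T-type gene next in level, had 162.0, 162.8 and 135.9 CPM in saline superficial and 147.9, 146.0 and 129.5 CPM in saline deep libraries. In cbx libraries it had 87.7, 119.6, 136.4 and 142.3 CPM in superficial and 117.7, 156.8, 151.5 and 136.7 CPM in deep tissue. Its log2 layer differences were 0.12 (SE 0.15) and -0.21 (SE 0.13), and groups overlapped in both treatments. Cacna1i, the third T-type gene, had 82.6, 76.1 and 69.3 CPM in saline superficial and 77.1, 69.3 and 61.6 CPM in saline deep libraries. After cbx it had 65.5, 74.1, 84.9 and 83.9 CPM in superficial and 75.6, 77.6, 78.6 and 72.0 CPM in deep libraries. Its log2 layer differences were 0.13 (SE 0.097) in saline and 0.02 (SE 0.084) in cbx tissue, with intervals of -0.08 to 0.35 and -0.17 to 0.21.

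The L-type genes overlapped between layers in both treatments. Cacna1c had 97.2, 79.8 and 75.8 CPM in saline superficial and 91.7, 81.9 and 75.7 CPM in saline deep libraries, and 58.7, 65.1, 82.3 and 81.2 CPM in cbx superficial and 68.6, 86.1, 94.7 and 76.7 CPM in cbx deep libraries. Cacna1d, whose channels open at lower voltages than those of Cacna1c, had 125.8, 117.6 and 100.7 CPM in saline superficial and 112.8, 99.0 and 96.6 CPM in saline deep libraries. In cbx libraries it had 63.7, 88.8, 102.7 and 109.0 CPM in superficial and 73.6, 113.9, 112.3 and 92.4 CPM in deep tissue. Log2 layer differences were 0.02 (SE 0.14) and -0.18 (SE 0.12) for Cacna1c, and 0.16 (SE 0.20) and -0.11 (SE 0.17) for Cacna1d, in saline and cbx tissue.

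Cacna1e, the R-type gene, and Cacna1d varied more between libraries of a group than the other 6 genes, with an SD of log2 CPM within groups of 0.272 and 0.266. Cacna1e had 173.7, 144.7 and 124.7 CPM in saline superficial and 166.5, 150.5 and 135.5 CPM in saline deep libraries. After cbx it had 93.7, 129.7, 148.9 and 157.7 CPM in superficial and 133.8, 197.0, 196.4 and 148.1 CPM in deep libraries. The log2 layer difference was -0.03 (SE 0.20) in saline and -0.35 (SE 0.18, edgeR adjusted p = 0.158) in cbx tissue.

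With the pool block, 4 more genes were called lower in cbx superficial tissue, so that 6 of 8 were lower and 0 higher, where 16.7% of all genes in that fit were lower and 20.7% higher. They were Cacna1c at -0.19 (SE 0.064), Cacna1e at -0.36 (SE 0.092), Cacna1g at -0.25 (SE 0.080) and Cacna1h at -0.23 (SE 0.067), with edgeR adjusted p of 0.0278, 0.00892, 0.0222 and 0.0117. Of the same 4 genes in cbx pool 4, each had more in superficial than deep tissue, with ratios of 1.04 to 1.08. With the length and GC trends removed instead, Cacna1e (-0.21) and Cacna1g (-0.16) were called lower and Cacna1i higher (0.15, SE 0.057, edgeR adjusted p = 0.0442) beside Cacna1a (-0.47) and Cacna1b (-0.48), where 20.6% of all genes were lower and 14.7% higher. DESeq2 called Cacna1e too (-0.38, DESeq2 adjusted p = 0.0371). In the fit with these trends removed the share of higher calls among all genes was 41.6% in place of 56.1% in cbx and 40.0% in place of 52.6% in saline tissue.

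**Figure D3:**
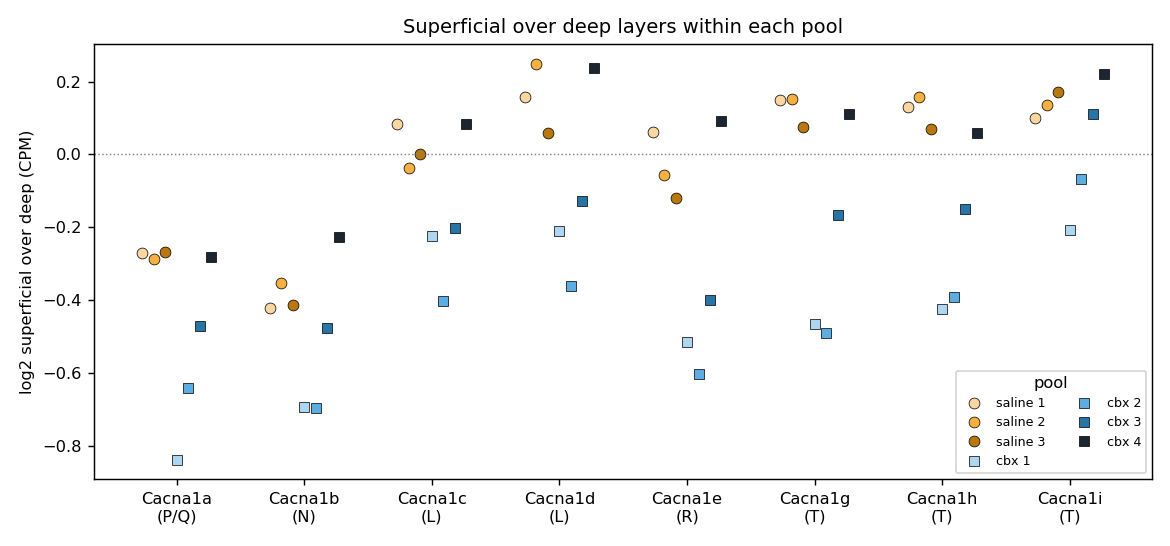
Each point is the log2 ratio of superficial to deep CPM for 1 gene in 1 pool, with circles for saline pools and squares for cbx pools, and 0 as equal levels. All 7 points of Cacna1a and of Cacna1b lie below 0, while the other 6 genes have points on both sides.

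The comparison of treatments within a layer asked whether blocking gap junctions in the newborn eye was followed by other channel levels in the colliculus. In superficial tissue 0 of 8 genes were called by edgeR, where 4.33% of all genes were. DESeq2 called 1 of 8 and limma-voom 0, where they called 7.8% and 4.33% of all genes. An unadjusted edgeR p under 0.05 was found for 2 of 8, beside 4179 of all 20330 genes. In deep tissue 0 of 8 were called by edgeR, DESeq2 or limma-voom, where they called 1.83%, 4.43% and 1.57% of all genes. An unadjusted edgeR p under 0.05 was found there for 0 of 8, beside 3118 of all 20330 genes. In superficial tissue 7 of 8 log2 differences were below 0, with a median of -0.23 over the 8 and 0.01 over all genes tested. In deep tissue 4 of 8 were below 0, with a median of 0.00 beside 0.01. Since the 8 genes move together between libraries, their directions are not independent. Sex markers also differed between treatments, with Ddx3y at 30.45 to 70.8 CPM in saline and 0 to 38.6 CPM in cbx libraries. Xist was at 0.572 to 526.3 CPM in saline and 262.1 to 1127 CPM in cbx libraries. No fit held sex as a term, so its part in the treatment differences was not tested.

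Cacna1a had 184.3, 170.9 and 168.0 CPM in saline superficial libraries and 109.3, 141.1, 159.2 and 155.0 CPM in cbx superficial libraries. All cbx libraries were below all saline libraries. Cacna1a alone among the 8 had groups that did not overlap, beside 17.3% of all genes tested, counted in either direction. The log2 difference, cbx minus saline, was -0.30 (SE 0.099), or 0.810-fold (95% interval 0.695 to 0.944), and did not pass (edgeR adjusted p = 0.0847). Several alternatives moved it past the threshold: DESeq2 (-0.31, DESeq2 adjusted p = 0.0446), no filter on low counts (-0.30, edgeR adjusted p = 0.0131), length and GC trends removed (-0.20, edgeR adjusted p = 0.0304), and cbx superficial library 3 left out (-0.37, edgeR adjusted p = 0.0456). Over all alternatives its adjusted p ranged from 0.0131 to 0.246. Without cbx superficial library 1 the difference was -0.20 (SE 0.072, edgeR adjusted p = 0.129).

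Cacna1h, at 153.5 CPM (SD 15.3, n = 3) in saline and 121.5 CPM (SD 24.5, n = 4) in cbx superficial tissue, differed by -0.34 (SE 0.14, edgeR adjusted p = 0.194). Cacna1d, at 114.7 CPM (SD 12.8) and 91.0 CPM (SD 20.1), differed by -0.33 (SE 0.18, edgeR adjusted p = 0.331). For both genes the groups overlapped, since cbx libraries 3 and 4 of Cacna1d and of Cacna1h lay above the lowest saline library. Without cbx superficial library 1 the differences were -0.21 (SE 0.10) and -0.20 (SE 0.15). With no filter on low counts both were called (edgeR adjusted p = 0.00410 and 0.00589).

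The other genes in superficial tissue differed by -0.23 (SE 0.13) for Cacna1c, -0.23 (SE 0.12) for Cacna1g, -0.16 (SE 0.19) for Cacna1e, -0.10 (SE 0.10) for Cacna1b and 0.02 (SE 0.091) for Cacna1i. Their edgeR adjusted p were 0.314 to 0.925. For Cacna1i the 95% interval was 0.882-fold to 1.17-fold and for Cacna1b 0.792-fold to 1.09-fold, which leaves changes of those sizes undetected here. The length and GC trend at these 8 genes differed between cbx and saline superficial libraries by -0.16 to -0.12, and with it removed Cacna1b was at 0.00 (SE 0.052), Cacna1e at -0.01 (SE 0.070) and Cacna1i at 0.17 (SE 0.061).

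Cell type markers also differed in superficial tissue. Of 10 microglial and macrophage markers 6 rose after cbx and 0 fell, with summed levels of 214 to 255 CPM in saline and 295.5 to 345.5 CPM in cbx libraries. Of 10 meningeal markers 4 rose and 0 fell (692 to 1037 and 899 to 1754 CPM), and of 12 neuronal markers 1 rose and 0 fell (5561 to 5866 and 5295 to 5499 CPM). None of these markers was at 0 in a whole group, and their part in the values of the channel genes was not tested. With the length and GC trends removed, 47.4% of the calls over all genes were higher in place of 61.9% in superficial, and 46.2% in place of 57.6% in deep tissue.

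In deep tissue the differences after cbx were smaller in size than in superficial tissue for 6 genes, about the same for Cacna1e but in the opposite direction, and larger for Cacna1i. Cacna1a was at -0.03 (SE 0.099), Cacna1b at 0.01 (SE 0.10), Cacna1c at -0.03 (SE 0.13), Cacna1d at -0.07 (SE 0.18), Cacna1e at 0.16 (SE 0.19), Cacna1g at 0.14 (SE 0.12), Cacna1h at -0.01 (SE 0.14) and Cacna1i at 0.13 (SE 0.091) on the log2 scale. The saline and cbx libraries overlapped for 8 of 8 genes, while 16.0% of all genes did not overlap. For the presynaptic genes the intervals were 0.838-fold to 1.139-fold for Cacna1a and 0.860-fold to 1.19-fold for Cacna1b.

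The difference between the treatment effects of both layers was tested directly as an interaction. By edgeR it was called for 0% of all genes tested, with 1699 genes at an unadjusted p under 0.05, while DESeq2 called 60 and limma-voom 0. None of the 8 channel genes was called by edgeR, DESeq2 or limma-voom. All 8 differences were below 0, where 49.6% of all genes tested were. They ran from -0.11 (SE 0.13) for Cacna1i to -0.37 (SE 0.17, edgeR adjusted p = 0.597) for Cacna1g, the only gene of the 8 with an unadjusted p under 0.05. Cacna1a was at -0.27 (SE 0.14, edgeR adjusted p = 0.632). The length and GC trend at the 8 genes itself ran from -0.165 to -0.0918 for the interaction, and its part was not tested. With the pool block, 0.3% of all genes and 0 of the 8 were called. In that fit 5 of the 8 had an unadjusted p under 0.05, beside 2454 of all 20330 genes. Since the 8 genes move together between libraries, these 5 are not independent. The smallest edgeR adjusted p of the 8 in the fit with the pool block was 0.156, for Cacna1h (-0.35, SE 0.10).

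**Figure D4:**
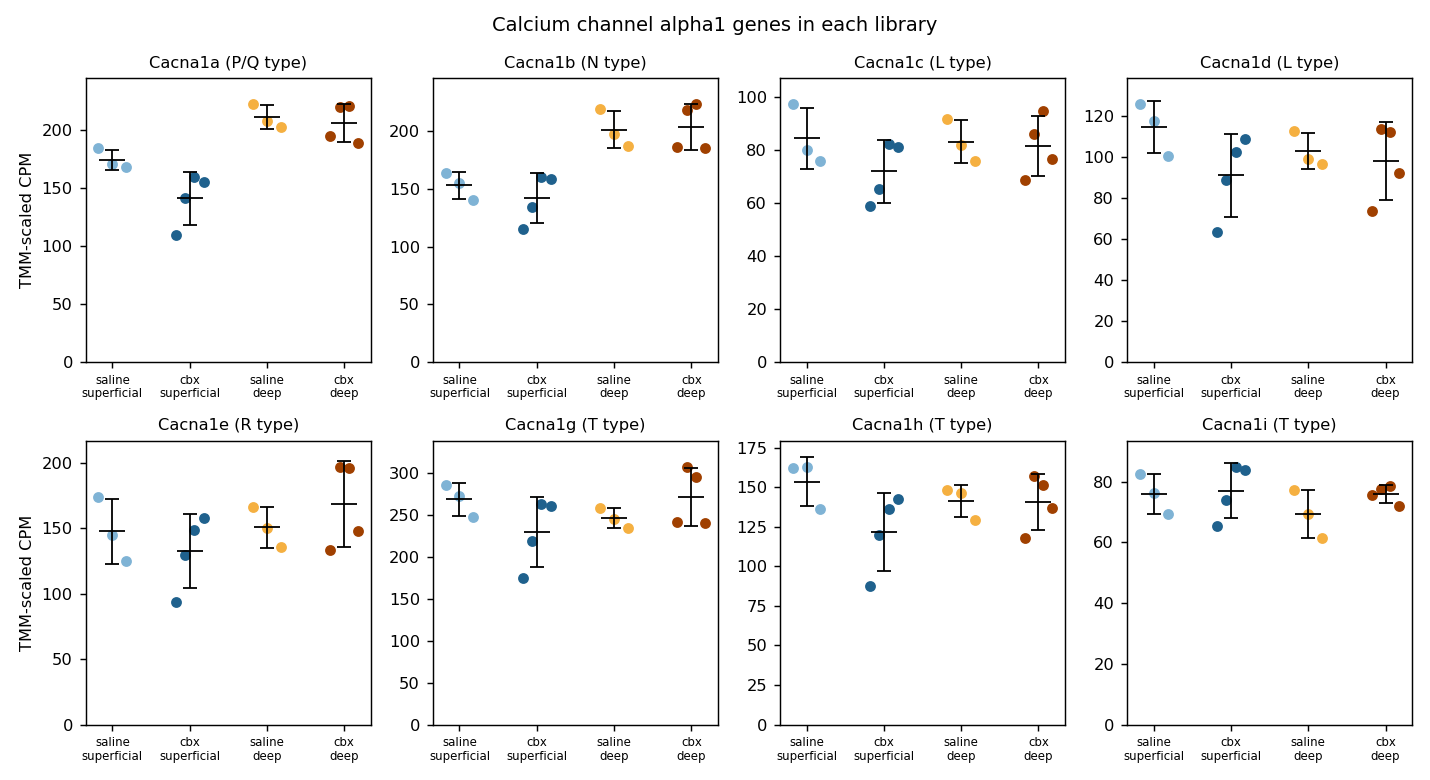
Each panel is 1 alpha1 gene, each point 1 library in TMM-scaled CPM, and the bars are the mean and SD of each group. Cacna1a and Cacna1b are lower in all superficial than in all deep libraries of the same treatment, and Cacna1a is lower in all cbx (109.3 to 159.2) than in all saline (168.0 to 184.3) superficial libraries.

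**Figure D5:**
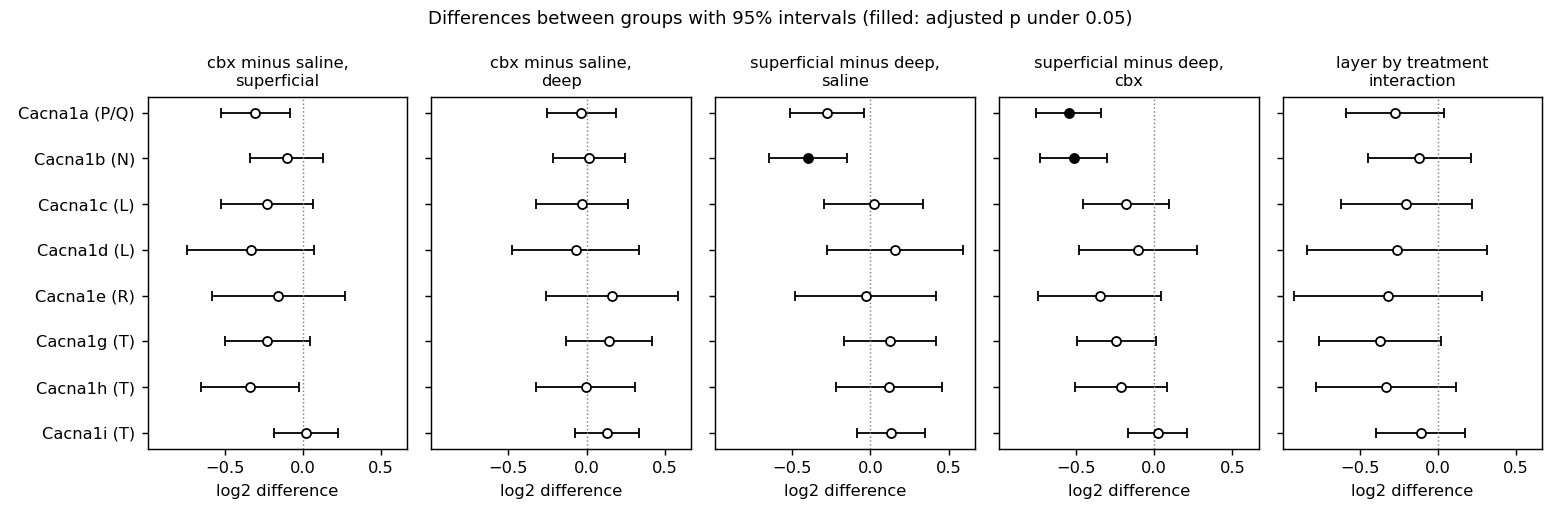
Points are log2 differences of the 8 genes in the 5 comparisons, with 95% intervals, filled where the edgeR adjusted p was under 0.05. The intervals use 10 residual degrees of freedom and are not those of the edgeR test. They can therefore include 0 where its unadjusted p is under 0.05. Cacna1b in saline tissue and Cacna1a and Cacna1b in cbx tissue are filled in the layer comparisons, and no other point is.

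The patterns most like those of the called genes were sought among 15142 tested genes with a symbol and a mean of at least 1 CPM, by the root mean square difference of centred log2 CPM over 14 libraries. For Cacna1a these included Cdc42bpa, a kinase gene (0.0547), where Cacna1a itself varied by 0.279. For Cacna1b they were Rims1, an active zone scaffold that binds calcium channels (0.0481), and Abca2, a lipid transporter gene (0.0511), where Cacna1b varied by 0.275. These are descriptions over libraries that share pools and layers.

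Channel complexes also hold alpha2delta subunits, which aid trafficking to the membrane, and beta subunits, which bind inside the cell. Of these 8 genes 0 were called between cbx and saline tissue in either layer, with medians of -0.07 in superficial and 0.02 in deep tissue. In the layer comparison 5 of 8 were lower in superficial saline tissue, where 8.73% of all genes were, and 7 of 8 in superficial cbx tissue, where 14.1% were. None was higher, and the medians were -0.29 and -0.42 beside 0.04 and 0.02 over all genes. Cacna2d3 fell by 0.98 (SE 0.096) and Cacna2d1, a receptor of gabapentin drugs, by 0.62 (SE 0.082) in saline tissue, with edgeR adjusted p of 3.53e-07 and 1.60e-05. In cbx tissue Cacna2d1 was lower in the superficial layer by a log2 difference of -0.88 (SE 0.072) and Cacna2d3 of -0.76 (SE 0.083), with edgeR adjusted p of 1.27e-08 and 6.20e-07.

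Beta subunits followed the same order of layers. Cacnb3, a main beta subunit of N-type channels, averaged 159 CPM (SD 11.4, n = 3) in saline superficial and 224 CPM (SD 6.84, n = 3) in saline deep tissue, a difference of -0.49 (SE 0.067, edgeR adjusted p = 1.94e-05). Cacnb1 differed by -0.29 (SE 0.064, edgeR adjusted p = 0.00293) in saline and -0.40 (SE 0.055, edgeR adjusted p = 1.32e-05) in cbx tissue. Cacna2d2 was called in both treatments, Cacnb2 and Cacnb4 only in cbx tissue, for which the difference between treatments was not called (edgeR adjusted p of the interaction 0.664 and 0.465), and Cacna2d4, at 1.67 to 2.25 CPM, in neither.

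Gamma subunits and the related AMPA receptor partners (TARPs) gave 2 of 7 tested genes lower in superficial tissue in each treatment. Of all genes 8.73% were lower in saline and 14.1% in cbx tissue. The 2 genes were Cacng2 and Cacng8, both TARPs, at -0.42 (SE 0.069) and -0.27 (SE 0.091) in saline tissue. The median over the 7 genes was -0.11 in saline and 0.03 in cbx tissue. Between treatments, Cacng1, the skeletal muscle gamma subunit, was at 0.852 CPM (SD 0.28, n = 4) in cbx and 1.98 CPM (SD 0.26, n = 3) in saline superficial tissue. The log2 difference, cbx minus saline, was -1.22 (SE 0.29, edgeR adjusted p = 0.0229) there and -1.14 (SE 0.30, edgeR adjusted p = 0.0543) in deep tissue, and the interaction was -0.09 (SE 0.42). The remaining alpha1 genes Cacna1f, of the retina, and Cacna1s, of skeletal muscle, were at 0.279 to 0.660 CPM in group means and were called in no comparison.

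Of 23 tested regulators and partners of the channels, 2 were higher and 10 lower in superficial tissue in each treatment, with medians of -0.27 and -0.25. Over all genes 9.67% were higher and 8.73% lower in saline tissue, and 18.1% and 14.1% in cbx tissue. Stac2, which slows inactivation of L-type channels, differed by -0.89 (SE 0.092), Akap5, a scaffold of kinases at L-type channels, by -0.74 (SE 0.088) and Camk2d by -0.45 (SE 0.060) in saline tissue. Cabp1, a calmodulin-like binding protein, was higher by 0.63 (SE 0.092). Between treatments the superficial layer had 1 gene of this list lower after cbx, the kinase gene Camk2g at -0.29 (SE 0.062, edgeR adjusted p = 0.0133), and 0 higher, and the deep layer 0 called.

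Among 17 genes of calcium buffers, pumps, exchangers and stores, 1 was higher and 4 were lower in superficial than deep saline tissue, where 8.73% of all genes were lower. In cbx tissue 1 was higher and 11 were lower, where 14.1% of all genes were lower, and the medians were -0.32 and -0.55. Calb1, a buffer protein of superficial collicular neurons, was higher by 0.78 (SE 0.13) and 0.77 (SE 0.11). The plasma membrane pump genes Atp2b2 and Atp2b1 were lower at -0.60 (SE 0.086) and -0.57 (SE 0.098) in saline tissue, and the exchanger gene Slc8a2 at -0.44 (SE 0.088). Between treatments, Ryr1, a release channel of calcium stores, was lower in cbx than saline superficial tissue at -0.42 (SE 0.11, edgeR adjusted p = 0.0412), the only gene of this list called for treatment, and 0 were called in deep tissue.

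Of 16 genes that carry calcium signals to the nucleus, 0 were called between cbx and saline tissue in either layer, with medians of 0.00 and -0.04. Between layers 5 were higher and 2 lower in superficial saline tissue (9.67% and 8.73% of all genes), and 5 higher and 4 lower in superficial cbx tissue (18.1% and 14.1%). Creb1, a transcription factor activated by calcium, was higher by 0.38 (SE 0.067), Nfatc4 by 0.72 (SE 0.14) and Mef2c by 0.99 (SE 0.19), while Ppp3ca, a catalytic subunit of calcineurin, was lower at -0.37 (SE 0.069). Unlike the subunit genes of the channels, this list had calls in both directions, with medians of -0.03 and -0.02.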

How the data were processed

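The authors deposited 1 table of whole-number read counts per gene and library (14 libraries, 55359 Ensembl IDs). The submitters' processing notes list FastQC 0.11.9, STAR 2.7.9d, SAMtools 1.14, Subread 2.0.1 and featureCounts, and give GRCm39 as well as mm10 without saying what either was used for. Strand setting and annotation: not given in the sources used here. Reads shared by a gene and an overlapping or antisense partner may therefore be mixed. Symbols matched 52083 IDs with 98.7% of counts.

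Counts were fitted with edgeR 4.0.16 in R 4.3.3 (TMM, filterByExpr by group, 4 group means, robust quasi-likelihood test, Benjamini-Hochberg over 20330 genes, threshold 0.05). DESeq2 1.42.0, limma-voom (limma 3.58.1), other scalings and filters, left-out libraries, removal of length and GC trends (spline with 5 degrees of freedom, GENCODE M21 properties) and replicate blocks were alternatives. The test was checked on simulated counts. For cbx against saline it found 70.6% of genes changed 1.5-fold in superficial and 67.6% in deep tissue. Of genes changed 1.2-fold it found only 4.55% and 3.03%, and between layers 6.06% in saline and 16.7% in cbx tissue. Changes of that size would thus mostly be missed.

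Replicate numbers come from the titles. Deviations of same-numbered libraries correlated at 0.182 to 0.394 between layers in all 7 pairs, and those of other numbers at -0.373 to 0.173. Numbers were therefore taken to pair the layers, though the labels do not state shared brains. Between treatments same-numbered libraries correlated at -0.276 to -0.0167 and share only a number. Other-numbered libraries correlated at -0.27 to 0.305 between treatments, so a correlation of that size does not by itself show shared brains. Total counts limit precision little at these genes, with at least 1925 reads each, and intervals cover the spread between pools. Gene levels used CPM with TMM factors and the union of exons. All 8 genes are named; list genes were named where called, up to 4 per list and comparison by smallest p; like genes were the 2 nearest for each called gene, of which 1 is not reported here. The genes and lists were chosen with earlier results of these data known.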

Additional observations from a re-analysis of the deposited data

How the results depend on the processing

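The lower levels of Cacna1a and Cacna1b in cbx superficial than cbx deep tissue kept their direction and call under every alternative run, with log2 differences of -0.63 to -0.44 and -0.61 to -0.43. Of all values of single channel genes under an alternative, 621 kept direction and side of the threshold, 42 changed sign, 22 passed the threshold under the alternative alone and 3 lost their call; none that changed sign was called before or after. The cause of a changed value was not tested. After cbx in superficial tissue, 0 channel genes were called by edgeR, where 4.33% of all genes were. DESeq2 called 1, no low-count filter gave 3, and removal of length and GC trends gave 1. The shares of all genes called were 7.8%, 3.82% and 5.78%. In saline layers 1 was called by edgeR and 0 without the 2 single-sex pools, where 18.4% and 10.2% of all genes were. Channel genes called there were 2 with DESeq2, no filter, only the groups compared, trends removed or the replicate block of pools. Shares of all genes were 20.6%, 9.58%, 24.4%, 22.7% and 22.9% in the same order. In cbx layers 2 were called by edgeR, where 32.2% of all genes were. They were 5 with no filter, 5 with trends removed and 6 with the replicate block of pools, where 16.8%, 35.3% and 37.4% of all genes were called.

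Counts over all genes moved with the cbx comparison of superficial tissue from 880 to 1459 with no filter, 1585 with DESeq2, 142 with only the groups compared, 480 with the replicate block of numbers and 91 with the 2 single-sex pools (saline pool 1, male; cbx pool 4, female) left out. In deep tissue they moved from 373 to 566, 901, 611, 191 and 14 in the same order, and to 849 with trends removed. Between saline layers 3739 became 2133 without the 2 single-sex pools. For the interaction 0 became 256 with no filter, 60 with DESeq2 and 61 with the replicate block of pools.

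Sign changes of differences near 0 were as follows. Without the 2 single-sex pools, the cbx differences in deep tissue were 0.045 for Cacna1a, 0.075 for Cacna1c, 0.029 for Cacna1d and 0.041 for Cacna1h, and the layer differences -0.018 for Cacna1c in saline and -0.044 for Cacna1i in cbx tissue. With trends removed, Cacna1b was at 0.0029 after cbx in superficial and Cacna1h at 0.023 in deep tissue, the Cacna1i interaction at 0.0048 and the saline layer difference of Cacna1c at -0.016. That of Cacna1c was -0.0083 with median-of-ratios factors, -0.0022 with no filter, -0.0083 with DESeq2 and -0.0054 with only the groups compared. The cbx layer difference of Cacna1i was -0.0076 with median-of-ratios factors, -0.0076 with DESeq2 and -0.017 with a filter of 1 CPM in 3 libraries, under which its cbx difference in superficial tissue was -0.0017.

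With each library left out in turn, all-gene counts were 140 to 907 (cbx, superficial), 42 to 272 (cbx, deep), 2685 to 3406 and 5391 to 6276 (saline and cbx layers) and 0 to 14 (interaction, 14 without cbx superficial library 2), and channel genes called 0 to 1 after cbx in superficial tissue, 0 to 1 in saline and 2 to 2 in cbx layers. Log2 ranges that crossed 0 were, after cbx, -0.040 to 0.091 for Cacna1i in superficial tissue, and in deep tissue -0.071 to 0.0067 for Cacna1a, -0.036 to 0.078 for Cacna1b, -0.11 to 0.047 for Cacna1c, -0.16 to 0.047 for Cacna1d and -0.067 to 0.072 for Cacna1h. For layers they were -0.093 to 0.097 for Cacna1c and -0.16 to 0.078 for Cacna1e in saline, and -0.22 to 0.032 for Cacna1d and -0.027 to 0.093 for Cacna1i in cbx tissue. With the longest transcript as the length 23 of 32 group levels per kilobase moved by more than 1 SD; without TMM factors 0 did. The replicate block of numbers, which share only a number between treatments, changed no call of the 8 genes.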
